A study of Capra hircus with 8 samples.

Results

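NLRP5, NLRP13, KHDC3L and TLE6 were followed in goat (Capra hircus) embryos at the 8-cell stage. These 4 genes were taken by symbol from a table of 22107 entries, and each symbol had a single entry. The samples were 2 libraries from in vitro fertilised (IVF) embryos and 2 from embryos cloned by nuclear transfer (SCNT), where a body-cell nucleus replaces that of the egg. Embryos were lysed whole and polyadenylated RNA was amplified by Smart-seq2, a full-length method for very small inputs. The labels give neither the donor cell type nor the number of embryos in a library, nor whether replicates were separate pools, so the p-values measure only the spread between these libraries. The series also holds 4 libraries of 4-cell embryos, for which lncRNA values alone were used here.

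NLRP5 (also called MATER), TLE6 and KHDC3L encode parts of the subcortical maternal complex, a protein assembly laid down under the membrane of the growing oocyte and carried into the cleaving embryo. In mice, loss of NLRP5 or TLE6 stops embryos in the first cleavages, and in women variants in genes of the complex have been linked to early embryo arrest or to molar pregnancy. KHDC3L carries a KH-like domain, a fold known from RNA-binding proteins, and TLE6 belongs to the Groucho family of corepressors. NLRP13 is a further NLRP gene expressed in oocytes. The NLRP proteins share a nucleotide-binding NACHT domain and leucine-rich repeats, and some relatives, such as NLRP3, act in innate immunity instead.

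The label of the set calls its genes maternal and retained to the 8-cell stage. Messenger RNA values were available at the 8-cell stage alone, so carried-over and newly made transcripts cannot be told apart, nor can retention be measured. In whole-embryo RNA, fewer cells of a type and less RNA per cell cannot be told apart either. Some oocyte and early-embryo markers were abundant in every library, with the zona gene ZP2 between 905 and 1279 FPKM. BTG4, which promotes maternal mRNA decay, was between 3330 and 6040 FPKM. Others were low, with ZAR1 between 1.29 and 1.73 FPKM and FIGLA between 0.466 and 2.75 FPKM. FPKM are fragments per kilobase of gene and per 1000000 fragments, so levels can be compared between genes per length.

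The libraries were sequenced to similar depth. The totals behind the scaling, recovered from the steps between low values, were between 1.03 and 1.10 times that of IVF replicate 1 in the other 3 libraries. At 1 FPKM or more there were 8984 and 9038 entries in IVF replicates 1 and 2, and 9883 and 11025 in SCNT replicates 1 and 2. SCNT replicate 2 stood furthest from the rest: across tested genes its correlation was 0.78 and 0.82 with the IVF libraries and 0.90 with SCNT replicate 1, against 0.96 between the IVF libraries.

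KHDC3L was the most abundant of the 4 genes in IVF embryos. It stood at 18.8 and 26.3 FPKM in IVF replicates 1 and 2, against 87.5 and 99.1 in SCNT replicates 1 and 2. The SCNT pair was tight and lay well above the IVF pair. By abundance among all entries, KHDC3L moved from ranks 2767 and 2246 in IVF to 851 and 792 in SCNT.

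TLE6, the Groucho-family part of the complex, stood at 4.28 and 5.05 FPKM in IVF replicates 1 and 2, against 15.5 and 27.3 in SCNT replicates 1 and 2. Here the IVF pair was tight and the SCNT pair spread by a factor of 1.76. The groups did not overlap. TLE6 was below KHDC3L in every library.

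NLRP13 was listed at 10.5 and 20.9 FPKM in IVF replicates 1 and 2, against 54.4 and 105 in SCNT replicates 1 and 2. Within each group the replicates differed by about the same factor, 2.0 in IVF and 1.92 in SCNT, and the groups were again set apart.

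NLRP5, a core part of the complex, was by far the lowest of the 4. It stood at 0.2001 and 0.786 FPKM in IVF replicates 1 and 2, against 2.58 and 4.299 in SCNT replicates 1 and 2. These values can be reached with 21, 91, 280 and 468 reads, or whole multiples of them. If those are the true counts, the exact 95% Poisson intervals of the IVF replicates, 0.124 to 0.306 and 0.633 to 0.965 FPKM, do not meet, so the gap between the IVF replicates was larger than counting error. Such intervals cover counting error only, since PCR copies cannot be told from separate molecules. The other 3 genes rested on at least 242 reads in every library, also by the smallest whole numbers.

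**Figure D1:**
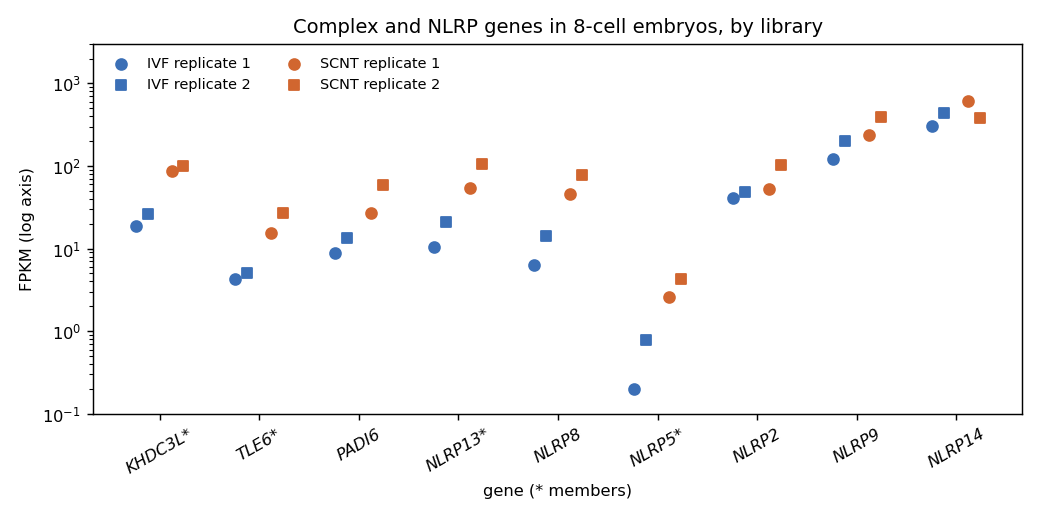
Levels of 9 genes in the 4 libraries of 8-cell embryos, in FPKM on a log axis, with 1 point per library (blue, IVF; orange, SCNT; circle, replicate 1; square, replicate 2). For KHDC3L, TLE6, NLRP13 and NLRP5 both SCNT points lie above both IVF points, while the points of NLRP14 overlap.

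The order of the levels was KHDC3L, NLRP13, TLE6 and NLRP5 in both IVF libraries and in SCNT replicate 1. In SCNT replicate 2, NLRP13 was slightly above KHDC3L. KHDC3L and NLRP13 thus did not keep the same order in every library. In IVF they stood at 22.6 ± 5.33 and 15.7 ± 7.39 FPKM (mean ± SD, n = 2). In SCNT the values were 93.3 ± 8.23 and 79.5 ± 35.5 FPKM. NLRP13 and TLE6 (4.66 ± 0.543 FPKM in IVF, 21.4 ± 8.34 FPKM in SCNT) were set apart in every library, as were TLE6 and NLRP5 (0.493 ± 0.414 FPKM in IVF, 3.44 ± 1.21 FPKM in SCNT).

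The comparison of SCNT with IVF embryos asks how gene expression after nuclear transfer departs from that after fertilisation. KHDC3L and NLRP13 rose in SCNT embryos, while TLE6 and NLRP5 were higher in both SCNT libraries and did not pass. The log2 difference, SCNT minus IVF on log2(FPKM + 1), was 2.02 ± 0.40 (SE) for KHDC3L (adjusted p = 0.043 in limma, Benjamini-Hochberg) and 2.27 ± 0.51 for NLRP13 (0.0496). It was 1.94 ± 0.47 for TLE6 (0.056) and 1.57 ± 0.41 for NLRP5 (0.062). As ratios of mean FPKM, SCNT over IVF, these were 4.13, 5.07, 4.596 and 6.98 in the same order. Of all tested genes, 21.5% had an SCNT mean at least 3 times the IVF mean without overlap of the groups. The added 1 FPKM shrinks the log2 difference of NLRP5 most, because its IVF level is below 1.

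Of the 10303 genes tested, 3.86% passed in either direction, 3.02% as higher and 0.844% as lower in SCNT. Both SCNT libraries lay above both IVF libraries in 46.9% of tested genes and below them in 17.1%, so the lack of overlap in the 4 genes is common in these libraries and says little about them. In all 4 genes, replicate 2 was the higher library of each group and SCNT replicate 2 the highest of all; 26.1% of tested genes had this same order of libraries. NLRP5 reached the required 1 FPKM through the SCNT libraries alone and therefore had to be higher there to be tested. Over all tested genes the log2 differences had a median of 0.39, so that part of each difference is shared with the typical gene. Above that median, NLRP5 stood by 1.18, TLE6 by 1.55, KHDC3L by 1.63 and NLRP13 by 1.88.

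**Figure D2:**
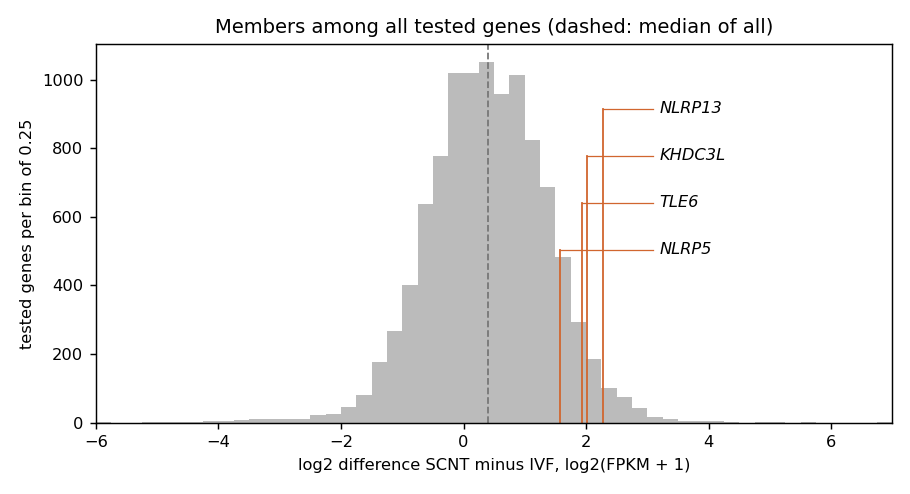
Distribution of the log2 difference SCNT minus IVF over the 10303 tested genes (grey bars, genes per bin of 0.25), with the 4 genes as orange lines whose heights carry no value. The dashed line is the median of all, 0.39; the 4 genes lie in the upper shoulder, between 1.57 and 2.27.

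None of the 4 calls or near-calls held under every alternative. KHDC3L lost its call without SCNT replicate 2 (log2 difference 1.93, adjusted p = 0.078 in limma) and without either IVF replicate (0.313 and 0.116), and NLRP13 lost it without SCNT replicate 2 (1.81, 0.111) and without IVF replicate 1 (1.80, 0.308). Both also lost it after median centring and after quantile normalization (adjusted p from 0.061 to 0.076 in limma). Without SCNT replicate 1, where the spread comes from the IVF pair alone, the log2 difference was 2.33 for TLE6 and 1.86 for NLRP5.

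**Figure D3:**
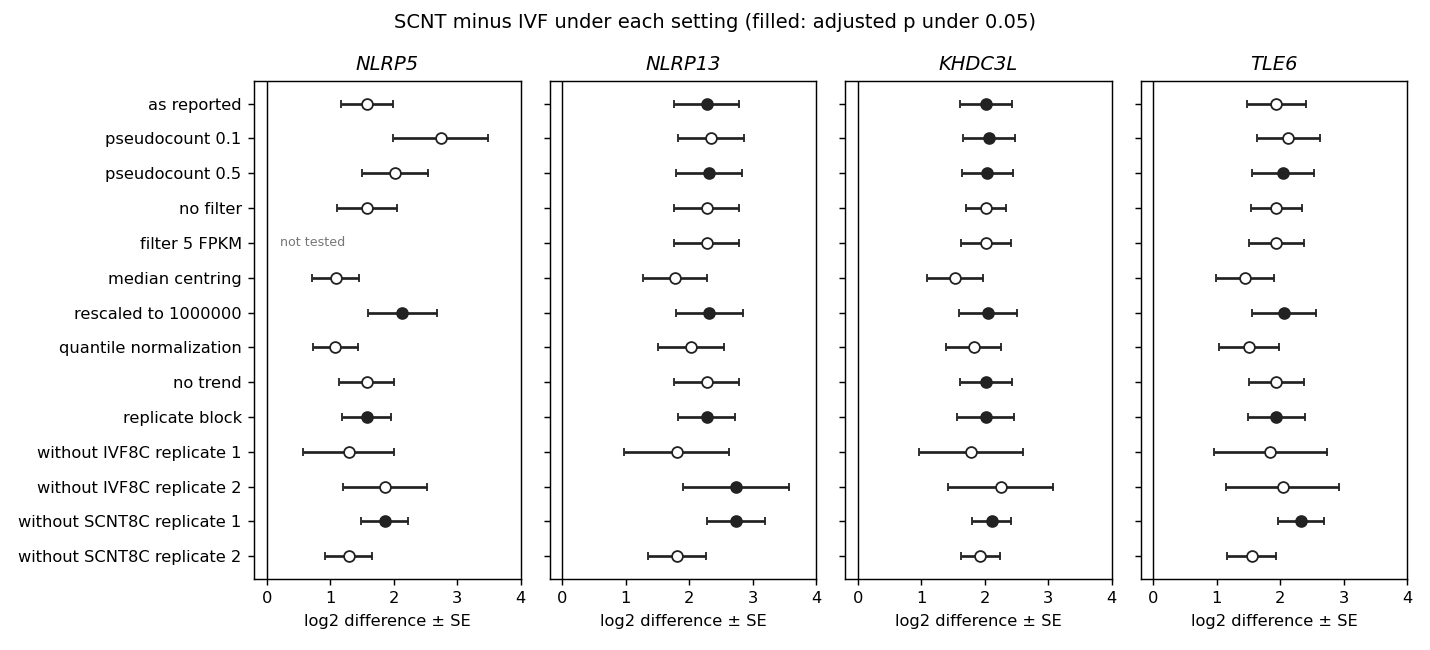
Log2 difference SCNT minus IVF (horizontal axis, ± SE) of the 4 genes as reported and under each of 13 alternatives, with filled points where the adjusted p in limma was under 0.05. The points stay between 1.08 and 2.74, to the right of 0, while the filling changes with the setting; NLRP5 was below the stricter filter.

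In the ratios between the 4 genes, the groups overlapped for some pairs and not for others. The log2 ratio of KHDC3L to TLE6 was 2.14 and 2.38 in IVF replicates 1 and 2 and 2.49 and 1.86 in SCNT replicates 1 and 2, so the groups overlapped. The ratio of NLRP13 to KHDC3L was −0.85 and −0.33 in IVF and −0.69 and 0.08 in SCNT, again overlapping. NLRP5 to NLRP13 was −5.71 and −4.73 in IVF and −4.40 and −4.61 in SCNT, which did not overlap, with IVF replicate 1 standing apart. With 2 libraries against 2, an exact two-sided permutation test cannot go below p = 0.333, so these ratios are given as values.

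PADI6, which encodes a peptidylarginine deiminase-like protein of the same oocyte structures, was the complex gene nearest in pattern to TLE6. It stood at 8.84 and 13.6 FPKM in IVF against 26.8 and 58.3 in SCNT, a log2 difference of 1.76 ± 0.50 (adjusted p = 0.069 in limma). Its ratio to TLE6 overlapped between the groups. Of 10 other symbols listed for the complex, 5 were in the table and 4 could be tested (NLRP2, NLRP9, NLRP14 and PADI6). None of the 4 passed in limma, and 1 had an unadjusted p under 0.05, against 31.1% of all tested genes. ZBED3, linked to the complex in mice, stayed between 0.504 and 1.04 FPKM and was not tested. OOEP, the partner of NLRP5 and TLE6 in the complex, had no entry under that symbol. Whether an entry without a symbol stands for it was not tested.

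Among the NLRP genes, the differences were uneven. For comparison, 3.02% of all tested genes passed as higher in SCNT. NLRP8 rose from 6.32 and 14.0 FPKM in IVF to 45.5 and 78.9 FPKM in SCNT (log2 difference 2.54 ± 0.51, adjusted p = 0.043 in limma). It was the single gene that passed of the 4 tested among 7 other NLRP entries, and it lost the call after median centring (0.054), after quantile normalization (0.058) and without SCNT replicate 2 (0.104) or IVF replicate 1 (0.229). NLRP9 stood at 122 and 199 FPKM in IVF against 237 and 389 in SCNT (0.96 ± 0.44, 0.179), and NLRP2 at 41.1 and 48.01 FPKM and at 52.1 and 104 FPKM (0.72 ± 0.45, 0.308). NLRP14, the most abundant of the family in all libraries but SCNT replicate 2, had 309 and 444 FPKM in IVF against 608 and 376 in SCNT (0.37 ± 0.42, 0.586), and its sign turned after median centring (−0.13).

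**Figure D4:**
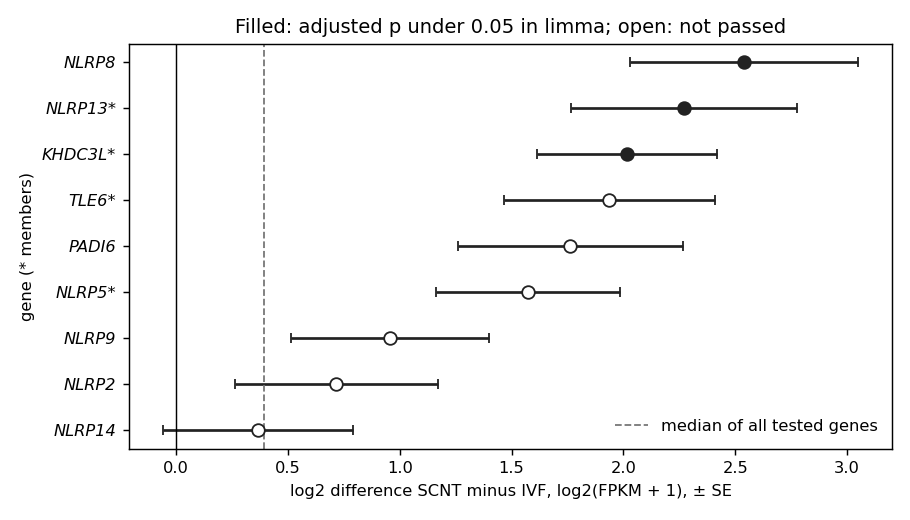
Log2 difference SCNT minus IVF (± SE, n = 2 libraries a group) of 9 genes of the complex and the NLRP family, ordered by size, with filled points where the adjusted p in limma was under 0.05. NLRP8, NLRP13 and KHDC3L are filled, and NLRP14 lies at the dashed median of all tested genes, 0.39.

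The makeup of the summed NLRP signal differed between the libraries. NLRP13 made up 2.13% and 2.88% of the summed NLRP FPKM in IVF replicates 1 and 2 and 5.44% and 9.89% in SCNT replicates 1 and 2. NLRP5 never exceeded 0.406%. The ratio of NLRP13 to NLRP9 was 0.0854 and 0.105 in IVF and 0.230 and 0.269 in SCNT. Its ratio to NLRP2 was 0.255 and 0.436 in IVF and 1.05 and 1.01 in SCNT. In neither did the groups overlap, but the share of all gene pairs without overlap was not measured. NLRP13 to NLRP8 went the other way, from 1.66 and 1.49 in IVF to 1.197 and 1.33 in SCNT. The NLRP genes are related in sequence, and the counting of reads that match several of them is not stated, which leaves the split between them uncertain.

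The immune relatives were at low levels. NLRP3, the inflammasome sensor, stood at 0.226 and 0.124 FPKM in IVF against 0.959 and 0.690 in SCNT. NLRP1 and NLRP12 stayed at or below 0.331 FPKM in every library. None of the 3 reached the level needed for testing.

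NLRP13, NLRP8 and NLRP5 are consecutive genes in the RefSeq goat annotation (assembly ARS1.2), which was used here for gene order alone because the build behind the files is not given. NLRP2 and NLRP9 lie on the same chromosome, 50 and 99 genes from NLRP5, and NLRP14 on another. The consecutive genes NLRP13, NLRP8 and NLRP5 had the same order of libraries. Next to them, ZNF787 and ZNF444, which encode zinc finger proteins, stayed at or below 0.141 FPKM in every library. The genes after these behaved in the opposite way. The pseudogene LOC102191368 fell from 179 and 191 FPKM in IVF to 1.92 and 17.3 FPKM in SCNT (log2 difference −4.67 ± 0.75, adjusted p = 0.028 in limma), and LOC108638123 fell from 5.69 and 15.5 FPKM to 0.229 and 1.11 FPKM (−2.70 ± 0.56, 0.044). A further pseudogene, LOC108638098, had 244 and 272 FPKM in IVF against 9.55 and 68.9 in SCNT (−3.25 ± 0.76, 0.0527). LOC102191368 passed whichever 1 library was left out, with a log2 difference of −3.35 without SCNT replicate 1 and −5.995 without SCNT replicate 2. Without SCNT replicate 2, LOC108638123 did not pass (log2 difference −3.10, adjusted p = 0.0966 in limma). LOC108638098 passed whichever 1 of the 4 libraries was left out, with log2 differences of −4.61 to −1.89 and adjusted p from 0.00766 to 0.0137 in limma.

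KHDC3L has as its next gene LOC102180236, a protein-coding gene without a symbol. That gene was more abundant than KHDC3L in every library, at 228 and 246 FPKM in IVF against 198 and 370 in SCNT, and did not pass (0.19 ± 0.43, adjusted p = 0.787 in limma). Its sign turned after median centring (−0.30) and without SCNT replicate 2 (−0.25). The ratio of KHDC3L to it was 0.0824 and 0.107 in IVF and 0.441 and 0.268 in SCNT. DDX43, which encodes an RNA helicase, stayed at or below 0.871 FPKM in the next place.

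TLE6 lies beside its relatives TLE2 and AES, which stayed at or below 0.191 and 0.0664 FPKM. On its other side LOC102180305 stood at 25.5 and 27.8 FPKM in IVF against 56.5 and 54.8 in SCNT. Its log2 difference was 1.035 ± 0.39 (adjusted p = 0.118 in limma). Further along, LOC106502316 (log2 difference 0.93), THOP1 (1.62) and ZNF554 (1.23) were higher in both SCNT libraries, as were 46.9% of all tested genes. None of them passed. THOP1 and ZNF554 reached 1 FPKM through the SCNT libraries alone, so they had to be higher there to be tested. LOC102181027 (0.07) overlapped between the groups. Of the other Groucho-family genes, TLE4 alone reached the level for testing, at 9.82 and 11.9 FPKM in IVF against 18.7 and 27.9 in SCNT (1.017 ± 0.44, 0.156). The ratio of TLE6 to TLE4 was 0.436 and 0.425 in IVF and 0.829 and 0.978 in SCNT. None of the 28 other neighbours within 5 genes of the 4 genes is annotated as an lncRNA, so the neighbourhoods gave no 4-cell value.

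**Figure D5:**
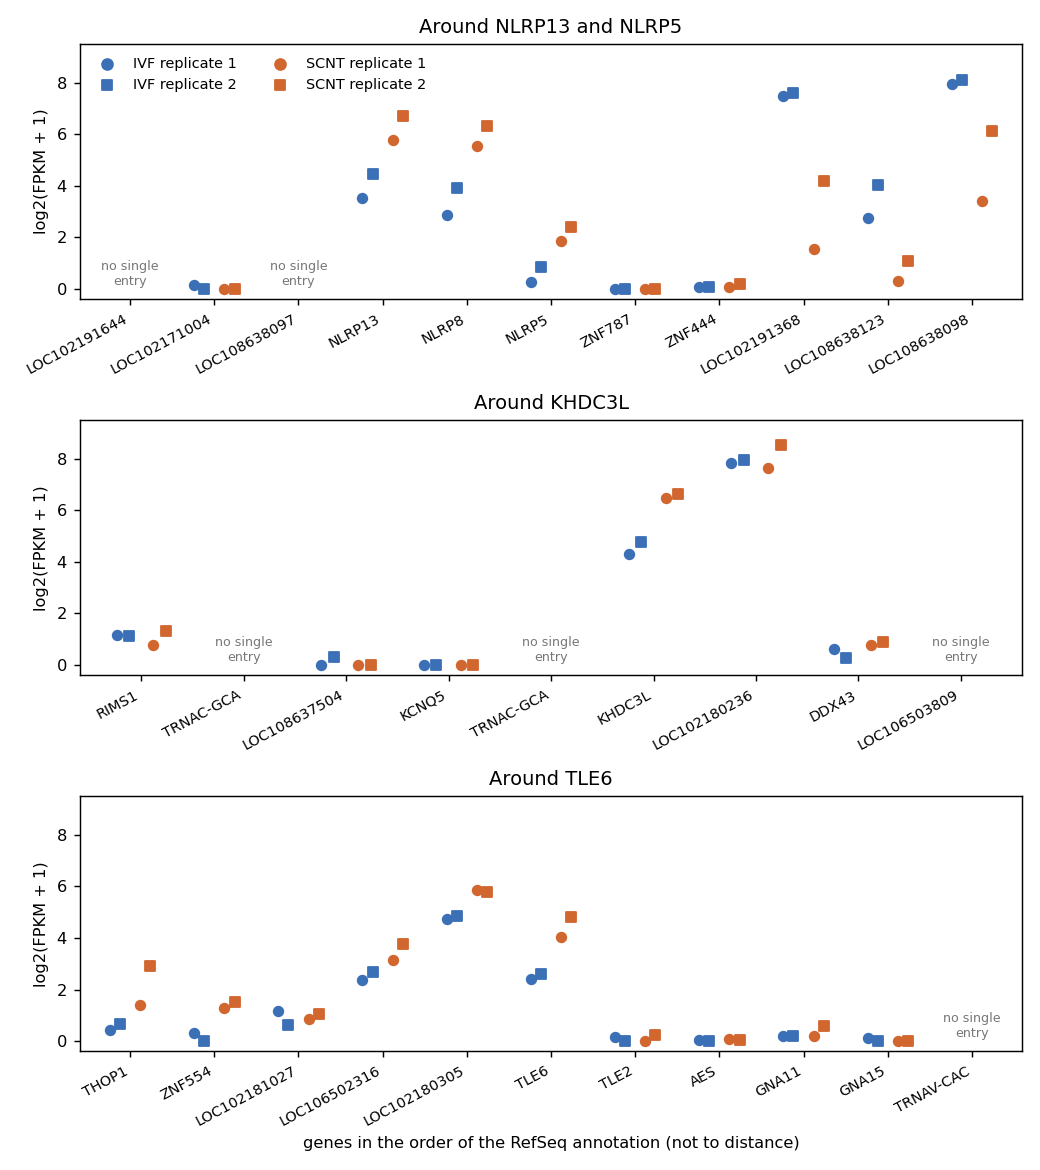
Levels, log2(FPKM + 1), of the genes within 5 places of NLRP5, KHDC3L and TLE6 in the RefSeq order, with 1 point per library (blue, IVF; orange, SCNT; circle, replicate 1; square, replicate 2). "No single entry" marks a gene that could not be matched to a single row. NLRP13, NLRP8 and NLRP5 are higher in SCNT, whereas the last 3 entries of that panel are higher in IVF, up to 272 FPKM.

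Many genes shared the pattern of the 4 genes more closely than they shared it with each other. Likeness was measured as the root mean square distance between centred log2(FPKM + 1) profiles over the 4 libraries. The nearest gene with a symbol was FOXM1, a cell-cycle transcription factor, for NLRP5 (0.0243), FAM207A for NLRP13 (0.0373), CCT5, a chaperonin subunit, for KHDC3L (0.0291) and BSDC1 for TLE6 (0.0216). Among the next 4 were STRN4, NOM1, IST1 and ZBTB5 for NLRP5, and MRPL38, TMED9 and the histone chaperone gene CHAF1A for NLRP13. For KHDC3L these were TMEM206, the remodeller gene CHD4, STAT2 and SRSF9, and for TLE6 they were DTYMK, C29H11orf68, LRP4 and SH3BP5L. Of the 10302 other tested genes ordered by likeness to NLRP13, NLRP8 held rank 29, PADI6 207, TLE6 266, KHDC3L 333 and NLRP5 523, while NLRP9 (2058), NLRP2 (3226) and NLRP14 (5530) were far down. In the order for NLRP5, PADI6 held rank 465, TLE6 646, KHDC3L 825, NLRP9 1279, NLRP13 2060, NLRP2 2873, NLRP8 3311 and NLRP14 5416. The added 1 FPKM shrinks the differences of NLRP5 most, and this enters its distances. In plain FPKM, the ratio of NLRP5 to NLRP8 was 0.0317 and 0.0560 in IVF and 0.0568 and 0.0545 in SCNT, so the groups overlapped. For KHDC3L, TLE6 held rank 126, NLRP5 195 and NLRP13 456, and for TLE6 these were KHDC3L at 386, NLRP5 at 401 and NLRP13 at 839.

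In mice the complex has been linked to the actin-severing protein cofilin. Of 16 genes for cofilin and its regulators 12 were tested. CFL1 and PDXP rose and none fell, where 3.02% of all tested genes passed as higher and 0.844% as lower. An unadjusted p under 0.05 in limma was found for 4 of the 12, against 31.1% of all tested genes. The median log2 difference, 0.40, was close to the 0.39 of all tested genes. CFL1, the non-muscle cofilin, stood at 50.5 and 46.1 FPKM in IVF against 161 and 279 in SCNT (2.11 ± 0.42, adjusted p = 0.043 in limma). PDXP, which encodes a cofilin phosphatase, stood at 2.16 and 2.12 FPKM in IVF against 12.1 and 13.3 in SCNT (2.12 ± 0.44, 0.044). Both lost the call after median centring (0.065 and 0.064) and without SCNT replicate 2 (0.062 and 0.091) or either IVF replicate (from 0.150 to 0.253). CFL2 (98.0 ± 2.88 FPKM in IVF, 79.7 ± 23.5 FPKM in SCNT) and DSTN (387 ± 43.0 and 354 ± 9.67 FPKM), the other actin-depolymerising genes, did not pass (0.611 and 0.847).

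None of 10 spindle and checkpoint genes passed in limma, and their median was 0.74. An unadjusted p under 0.05 in limma was found for 2 of the 10, against 31.1% of all tested genes. AURKA, a spindle kinase and the most abundant of them, had 851 ± 9.38 FPKM in IVF against 1529 ± 385 in SCNT (adjusted p = 0.195 in limma). Both SCNT libraries lay above both IVF libraries in 7 of the 10 and below in 1, against 46.9% and 17.1% of all tested genes. The lower gene was MAD2L1, at 328 and 300 FPKM in IVF against 243 and 212 in SCNT (log2 difference −0.47). Of 30 symbols of other oocyte and maternal-effect genes 23 were tested, with a median of 0.86. Of the 23, 10 had an unadjusted p under 0.05 in limma, against 31.1% of all tested genes. The 2 that passed were higher in SCNT, a direction in which 3.02% of all tested genes passed. ASTL, which encodes the egg protease ovastacin, rose from 3.296 and 5.93 FPKM in IVF to 34.9 and 43.2 FPKM in SCNT (log2 difference 2.87 ± 0.46, adjusted p = 0.028 in limma). ZAR1L, a relative of the maternal-effect gene ZAR1, rose from 195 and 184 FPKM to 783 and 1566 FPKM (2.54 ± 0.44, 0.033). ASTL lost the call without IVF replicate 1 (0.109) or SCNT replicate 2 (0.079), and ZAR1L without either IVF replicate (0.086 and 0.085). None of the 23 fell, and the egg-coat gene ZP2 and BTG4 did not pass (0.674 and 0.373). Differences as large as those of the 4 genes were found in this list too: of its 23 tested genes, 7 had a larger log2 difference than NLRP5, 5 than TLE6, 5 than KHDC3L and 3 than NLRP13.

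Markers of other cells were measured beside these results. Of 14 cumulus and granulosa markers 12 were in the table and 4 tested, and none passed (0 at an unadjusted p under 0.05). Their summed level was 85.1 and 90.0 FPKM in IVF against 61.6 and 95.2 in SCNT, mostly from STAR, HAS2 and TNFAIP6. FSHR, AMH and INHA were at 0 in every library. Both SCNT libraries lay below both IVF libraries in 2 of the 4 tested, against 17.1% of all tested genes, and above in none. TNFAIP6 stood at 19.5 and 19.8 FPKM in IVF against 1.77 and 14.3 in SCNT. HAS2 stood at 20.6 and 29.4 FPKM in IVF against 17.9 and 18.1 in SCNT. CYP19A1 overlapped, at 1.68 and 1.66 FPKM in IVF against 0.974 and 2.53 in SCNT. LHCGR was at 0 in both IVF libraries and at 0.385 and 1.30 FPKM in SCNT. Of 16 fibroblast markers 10 were tested, and 2 passed, both as higher in SCNT, where 3.02% of all tested genes did so. An unadjusted p under 0.05 in limma was found for 5 of the 10, against 31.1% of all tested genes. TIMP1, an inhibitor of matrix proteases, stood at 0.156 and 0.637 FPKM in IVF against 11.2 and 12.9 in SCNT (log2 difference 3.24 ± 0.44, adjusted p = 0.022 in limma), and TAGLN, an actin-binding protein, at 0.659 and 0.389 FPKM against 4.85 and 4.94 (1.96 ± 0.39, 0.042). Both reached 1 FPKM through the SCNT libraries alone, so they had to be higher there to be tested. TIMP1 lost the call without IVF replicate 1 (0.0506) or SCNT replicate 2 (0.062), and TAGLN without either IVF replicate (0.144 and 0.175), without SCNT replicate 2 (0.083), after median centring (0.059) and after quantile normalization (0.075). The fibroblast markers summed to 139 and 129 FPKM in IVF against 102 and 104 in SCNT. DCN, a matrix proteoglycan, carried most of the IVF sum, at 94.3 and 85.5 FPKM against 33.9 and 39.5 (adjusted p = 0.078). Without DCN the sum was higher in SCNT, at 68.5 and 64.9 FPKM against 44.3 and 43.1 in IVF. Both SCNT libraries lay above both IVF libraries in 5 of the 10 tested markers: COL1A2, COL3A1, VIM, TIMP1 and TAGLN. They lay below in 3: DCN, FAP and FN1. These shares were 46.9% and 17.1% over all tested genes. COL3A1 also reached 1 FPKM through the SCNT libraries alone. COL5A1, COL6A1 and THY1 stayed below 0.1 FPKM. Sperm markers summed to 8.32 and 12.1 FPKM in IVF against 18.7 and 32.6 in SCNT. Nearly all of it came from ODF2, which also encodes a centrosomal protein, and PRM2 and ODF1 were below 0.1 FPKM. Without ODF2 the sum was lower in SCNT, at 0.293 and 0.508 FPKM against 0.772 and 1.11 in IVF. The part of these markers, and of the larger number of detected genes in SCNT libraries, in the differences of the 4 genes was not tested.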

How the data were processed

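Messenger RNA of 8-cell goat embryos was used from 4 libraries, 2 IVF and 2 SCNT, grouped by the sample titles. The authors deposited FPKM values per gene. HISAT2 2.2.1, fastp and HTSeq are listed, with no role or order, per the submitters' processing notes. The build, annotation, handling of shared reads and scaling total are not given in the sources used. A table of lncRNA FPKM, also deposited, was searched for neighbours of the 4 genes.

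Genes that reached 1 FPKM in 2 or more libraries were tested on log2(FPKM + 1) with limma 3.58.1 in R 4.3.3 (lmFit, eBayes with trend), SCNT against IVF, two-sided, Benjamini-Hochberg over all 10303 genes, threshold 0.05. The fit was tested on simulated data. The members and lists were chosen with earlier results of these data known. Named genes were the 4 members, those of the lists that passed or were among the 4 most abundant, the 5 nearest in pattern and the neighbours within 5 genes. Oocyte regulators in the closing section, and PLK1, were added after their values were seen.

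Relative totals came from the commonest ratio of low values between libraries. With them, whole reads (within 0.01) were obtained for 74.4% of 500 genes, against 0.2% with wrong ratios. Alternatives changed the pseudocount, filter, scaling, variance trend, block and libraries. No sequence is shown. Of the genes that the likeness rule names, 1 is not reported here.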

Additional observations from a re-analysis of the deposited data

How the results depend on the processing

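The 4 genes kept a positive log2 difference under all alternatives that gave a value, and stayed above the median of all tested genes by 0.89 to 2.26 (NLRP5), 1.41 to 2.34 (NLRP13), 1.39 to 1.88 (KHDC3L) and 1.22 to 1.82 (TLE6). KHDC3L lost its call without a filter (2.02, adjusted p = 0.242 in limma), with a 5 FPKM filter (2.02, 0.054), after median centring (1.52, 0.076) and after quantile normalization (1.82, 0.061). NLRP13 lost it at a pseudocount of 0.1 (2.34, 0.052), without a filter (2.27, 0.242), with the 5 FPKM filter (2.27, 0.063), after centring (1.78, 0.072), after quantile normalization (2.03, 0.073) and without the variance trend (2.27, 0.056). TLE6 gained a call at a pseudocount of 0.5 (2.04, 0.04995) and after rescaling to a common total (2.06, 0.030), and NLRP5 after rescaling (2.14, 0.033). NLRP5 gave no value with the 5 FPKM filter. The cause was not tested. Leaving out 1 library at a time gave 1.78 to 2.25 for KHDC3L, 1.80 to 2.74 for NLRP13, 1.29 to 1.86 for NLRP5 and 1.55 to 2.33 for TLE6. Such fits assume that the lone library varies like the other group.

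The replicate numbers could not be shown to pair libraries: replicate differences of the IVF and SCNT pairs correlated at 0.12 over genes. With the replicate number as a block, TLE6 (1.94, adjusted p = 0.016 in limma) and NLRP5 (1.57, 0.020) also passed and 1924 genes were called, against 398 without it. The count of called genes was 0 without a filter (3661 at an unadjusted p under 0.05), 133 with the 5 FPKM filter and 1327 after rescaling. Without 1 library it was 46 to 3834, with the lowest without SCNT replicate 2 and the highest without SCNT replicate 1, 173 without IVF replicate 1 and 257 without IVF replicate 2. Calls were 311 higher and 87 lower as reported, 158 and 238 after centring (median of all genes −0.10), 121 and 150 after quantile normalization (−0.01), and 13 and 33 without SCNT replicate 2. Signs turned for NLRP14 (−0.13), ZP2 (−0.23) and LOC102180236 (−0.30) after centring, and without SCNT replicate 2 for ROCK1 (range over left-out libraries −1.30 to 0.11), TTK (−0.32 to 0.11) and LOC102180236 (−0.25 to 0.64). The precision is limited by 2 libraries a group and, for NLRP5 in IVF replicate 1, by 21 reads or a whole multiple of them.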

Other observations

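Values for 4 transcription factors that drive oocyte genes in mice are given here, none of which passed. NOBOX stood at 0.931 and 1.72 FPKM in IVF replicates 1 and 2, against 4.602 and 10.7 in SCNT replicates 1 and 2 (log2 difference 1.82 ± 0.51, adjusted p = 0.067 in limma). LHX8 stood at 31.8 and 34.5 FPKM in IVF against 102 and 88.6 in SCNT (1.49 ± 0.39, 0.061), and SOHLH1 at 0.122 and 0.471 FPKM and at 1.98 and 2.68 FPKM (1.37 ± 0.35, 0.061). FIGLA had 2.75 and 1.05 FPKM in IVF against 0.466 and 0.604 in SCNT (−0.85 ± 0.40, 0.182). SOHLH1 reached 1 FPKM through the SCNT libraries alone and FIGLA through the IVF libraries alone, so the direction of both was set by the requirement for testing. The groups overlapped in none of the 4, where 46.9% of all tested genes had both SCNT libraries above both IVF libraries and 17.1% had them below. These genes were picked after their values were seen.

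Among the spindle genes, PLK1, a mitotic kinase, stood at 3.33 and 3.13 FPKM in IVF against 11.3 and 23.9 in SCNT (2.05 ± 0.50, adjusted p = 0.056 in limma), and it too was picked after its values were seen.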
